A study of Mus musculus with 19 samples.

Results

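GABA-A receptors are pentameric chloride channels that open when they bind the inhibitory transmitter GABA. Most combine alpha and beta subunits with a gamma or delta subunit, and the alpha and the gamma or delta subunit set where the receptor sits and which drugs act on it. In the hippocampus, receptors with the alpha 2 subunit are known from synapses, those with alpha 5 mainly from extrasynaptic membrane of pyramidal cells, and those with alpha 4 and delta from extrasynaptic membrane of dentate granule cells, where they carry tonic inhibition. The delta, alpha 4 and beta 2 subunits are also known from thalamic relay neurons.

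The genes described here are 7 subunit genes, taken by their symbols from the count tables, of 20436 genes in all. They encode 4 alpha subunits (*Gabra2*, *Gabra3*, *Gabra4*, *Gabra5*), 2 beta subunits (*Gabrb1*, *Gabrb2*) and the delta subunit (*Gabrd*). All 7 were found in both tables and all 7 passed the filter on low counts in both assays. The tables hold 19 subunit rows, and the other 12 are given only as a group.

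Slices came from the hippocampus of wild-type male mice with a labelled age of 28 to 42 days. They were incubated for 5 min with dihydroxyphenylglycine (DHPG) at 100 µM, an agonist of group 1 metabotropic glutamate receptors, or with vehicle (basal). Cycloheximide at 100 µg/ml then held ribosomes in place, and the slices of several mice were pooled in each replicate. RNA-seq was done on 4 basal and 5 DHPG samples and ribosome profiling, which counts ribosome-protected fragments (RPFs), on 5 basal and 5 DHPG samples. Libraries held 4870813 to 7793244 counts in RNA and 5692064 to 22092434 in RPF, and each subunit had at least 307 RNA counts and at least 337 RPF counts in every library. A slice holds many cell types, and fewer cells of a type cannot be told apart from less RNA per cell.

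On mm10, *Gabra2* (chromosome 5, 70957597 to 71095849, minus strand), *Gabra4* (chromosome 5, 71569749 to 71658308, minus strand) and *Gabrb1* (chromosome 5, 71658113 to 72149037, plus strand) are neighbours. *Gabra4* and *Gabrb1* run in opposite directions and share 196 bp at their starts, and the counting strand is not given in the sources used here. *Gabra3* lies on chromosome X (72432681 to 72656848), *Gabra5* on chromosome 7 (57407672 to 57510059), *Gabrb2* on chromosome 11 (42419757 to 42629028) and *Gabrd* on chromosome 4 (155384980 to 155398112). The encoded proteins have 449 residues (delta) to 552 residues (alpha 4). Identity over aligned residues was 80.3% between beta 1 and beta 2 and 72.2% to 74.7% among alpha 2, alpha 3 and alpha 5. Alpha 4 shared 61.2% to 64.3% with the other three, so it is the most distant of the 4 alpha members.

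The alpha subunits differ at a residue that is known to decide whether classical benzodiazepines bind, a histidine in alpha subunits of sensitive receptors and an arginine in insensitive ones. The stretch of coding sequence around its codon is shown for the 4 alpha members because it tells their receptor types apart. It was read from the GENCODE transcript linked to RefSeq, with the codon in capitals. The stretches lie in exon 5 of *Gabra2* (chr5:71014493-71014519), *Gabra3* (chrX:72501156-72501182) and *Gabra5* (chr7:57488879-57488905) and in exon 4 of *Gabra4* (chr5:71641140-71641166), all on the minus strand of mm10, and are written 5′ to 3′.
Gabra2: gataccttctttCACaatgggaaaaag
Gabra3: gataccttcttcCACaatggtaaaaaa
Gabra4: gatactttcttcAGGaatggaaagaaa
Gabra5: gacacgttcttcCACaacggcaagaag
The codon was CAC, for histidine, in *Gabra2*, *Gabra3* and *Gabra5* and AGG, for arginine, in *Gabra4*.

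*Gabra2* had the highest level of RPFs per coding length among the 7 genes. Levels between genes are given per length, in TPM (counts per kilobase, scaled to the same total over all genes in every library). RPFs were divided by the coding length less 60 nt, since the authors left out 30 nt at each end. In the basal replicates 1 to 5, *Gabra2* had RPF levels of 404, 472, 483, 364 and 303 TPM. Its DHPG replicates had 439, 466, 506, 348 and 299 TPM, so the groups overlapped over almost their whole range. *Gabrb2* followed with a basal RPF level of 289 ± 22.8 TPM (SD, n = 5), against 405 ± 75.5 for *Gabra2*, and was below *Gabra2* in 10 of 10 libraries although their ranges overlapped.

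Further down were *Gabrb1* with a basal RPF level of 168 ± 17.9 TPM, *Gabra5* with 100.1 ± 7.62, *Gabra4* with 72.2 ± 4.43, *Gabra3* with 64.0 ± 9.59 and *Gabrd* with 42.3 ± 3.40 (SD, n = 5). Each was above the next in 10 of 10 libraries except for 1 pair. *Gabra4* was above *Gabra3* in 9 of 10 libraries, in 6 of 10 with the coding length of the RefSeq-linked transcripts and in 10 of 10 with no length. Their ranges overlapped under each rule, so these neighbours did not differ beyond their spread. This order of the basal means was found with each of 4 length rules (longest coding sequence, median transcript, RefSeq-linked transcript, and no length). With no length, *Gabra5* was above *Gabra4* in 9 of 10 libraries and their ranges overlapped.

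**Figure D1:**
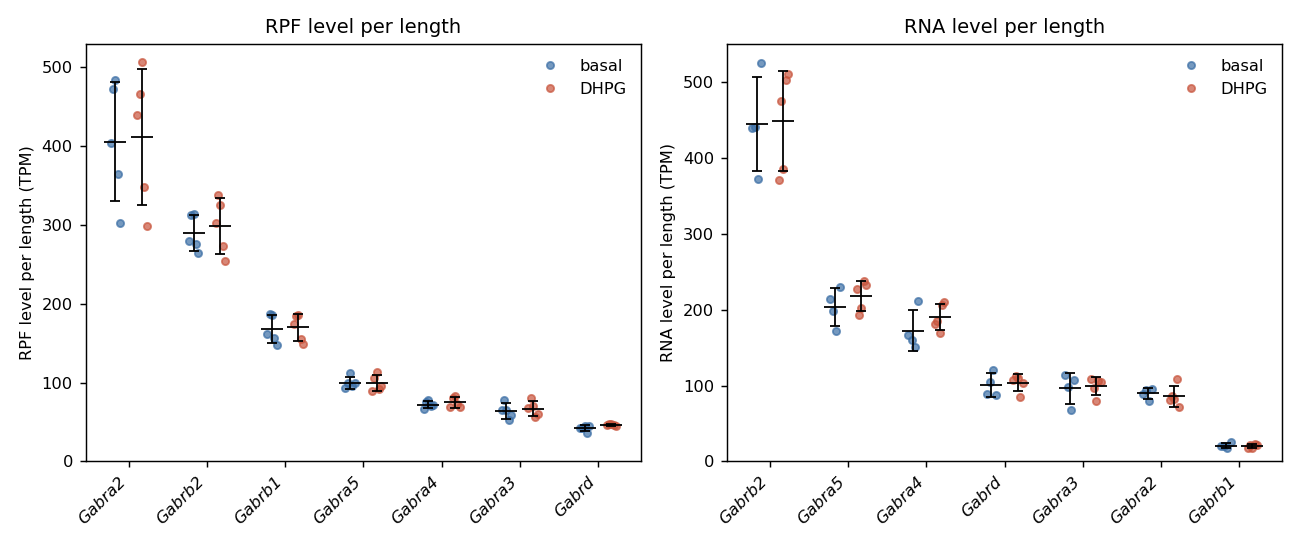
RPF (left) and RNA (right) level per length of the 7 subunits, in TPM, for each basal (blue) and DHPG (red) library, with the mean and SD as black bars. *Gabra2* leads in RPF, with basal levels from 303 to 483, while *Gabrb2* leads in RNA with this length rule, and the colours overlap for every gene.

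RNA levels gave another order. With the transcript of the longest coding sequence, *Gabrb2* had the highest basal RNA level at 445 ± 62.3 TPM (SD, n = 4), followed by *Gabra5* at 204 ± 25.1 and *Gabra4* at 172 ± 27. *Gabrd* (101 ± 15.8), *Gabra3* (96.7 ± 20.2) and *Gabra2* (89.8 ± 7.01) did not differ beyond their spread, and *Gabrb1* was lowest at 20.9 ± 3.20. The place of *Gabrb2* rests on a transcript model of 1539 nt with no untranslated part. With the RefSeq-linked transcript of 3989 nt, its basal RNA level was 172 ± 24.1 TPM and *Gabra5* led with 205 ± 25.3 TPM. *Gabrb1* was lowest under both rules, which used the same *Gabrb1* transcript of 13737 nt, of which 1425 nt are coding. With no length, *Gabrb1* ranked 5 of 7 by its basal RNA mean, above *Gabrd* and *Gabra3*. It was then above *Gabrd* in 9 of 9 libraries, although their ranges overlapped. The lowest place of *Gabrb1* thus rests on the assumed transcript length.

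The difference between the assays showed in the share of each alpha member. *Gabra2* took 62.8% ± 3.54 (SD, n = 5) of the RPF level of the 4 alpha members in basal slices but 16.1% ± 1.14 (SD, n = 4) of their RNA level. The shares of *Gabra5* were 15.8% ± 1.91 in RPF and 36.2% ± 0.432 in RNA, and those of *Gabra4* 11.4% ± 1.31 and 30.6% ± 2.14. *Gabra3* had 10.01% ± 1.03 in RPF and 17.1% ± 2.14 in RNA. In every one of 10 RPF libraries *Gabra2* had at least 56.8%, and in every one of 9 RNA libraries at most 17.1%. With the RefSeq-linked transcripts these *Gabra2* shares were 61.9% ± 3.55 in RPF and 20.4% ± 1.3 in RNA, and with no length 59.5% and 31.8%. No test compared the RPF share with the RNA share, since each rests on its own length. The 3 alphas with the histidine codon together took 88.6% ± 1.31 (SD, n = 5) of the alpha RPF level and 69.4% ± 2.14 (SD, n = 4) of the alpha RNA level in basal slices, and *Gabra4*, with the arginine codon, the rest. With the RefSeq-linked transcripts the 3 took 88.2% ± 1.34 in RPF and 77.2% ± 1.60 in RNA.

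Between the beta members, *Gabrb2* took 63.3% ± 0.665 (SD, n = 5) of the basal RPF level and *Gabrb1* 36.7% ± 0.665. The *Gabrb2* share in RPF ran from 62.5% to 64.7% over all 10 libraries. In RNA the share of *Gabrb2* was 95.5% ± 0.169 (SD, n = 4) with the longest coding sequence, 89.1% ± 0.382 with the RefSeq-linked transcript and 70.4% with no length. The 7 genes together held 51.2% ± 1.10 (SD, n = 5) of the basal RPF level and 65.7% ± 1.02 (SD, n = 4) of the basal RNA level of all 19 subunit rows. With the RefSeq-linked transcripts they held 51.7% ± 1.08 in RPF and 55.4% ± 1.25 in RNA. The shares here thus leave out the rest of these classes.

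The basal ratio of RPF to RNA was high for *Gabra2* and *Gabrb1*. The log2 ratio of RPF to RNA level per length was taken in basal replicates 1 to 4 and set against the median of 12644 genes. *Gabrb1* lay 3.59 above the median gene (SD 0.318, percentile 97.8) and *Gabra2* 2.79 above it (SD 0.280, percentile 95). The others lay near or under the median gene, with log2 differences of -0.02 for *Gabra3*, -0.05 for *Gabrb2*, -0.48 for *Gabra5*, -0.70 for *Gabra4* and -0.73 for *Gabrd*.

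These ratios moved with the transcript length assumed for RNA. Dividing RNA by the coding length instead, as if the noncoding parts gave no RNA counts, put *Gabra2* 1.63 (percentile 93.1) and *Gabrb1* 1.27 (percentile 87.8) above the median gene. With the RefSeq-linked transcripts *Gabrb2* lay 1.43 and *Gabra3* 1.12 above the median gene, and *Gabra4* changed side, from -0.70 to 0.12. *Gabra5* stayed at -0.50 and *Gabrd* at -0.75. The ranking of *Gabra2* and *Gabrb1* above the other 5 was found under each of the 4 length rules, and *Gabra5* and *Gabrd* were under the median gene under each.

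**Figure D2:**
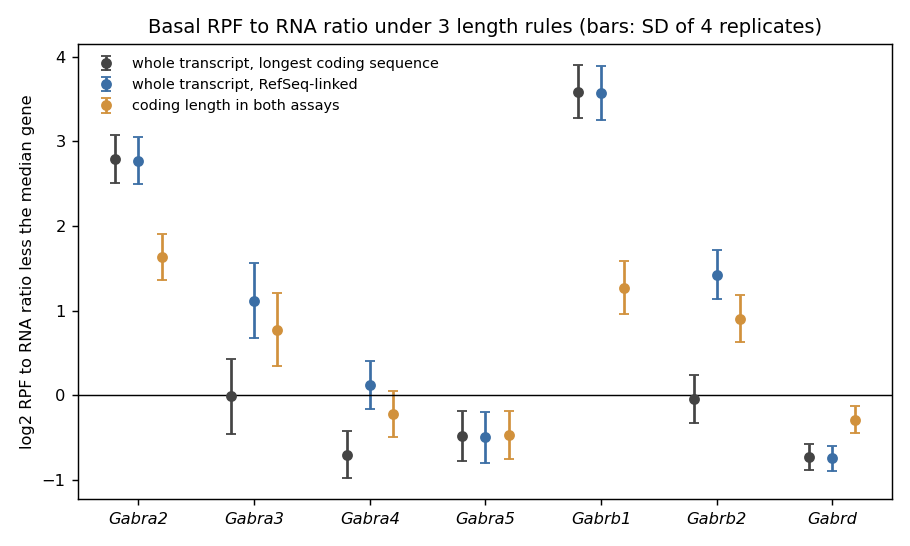
Basal log2 ratio of RPF to RNA level less that of the median gene, for each subunit under 3 length rules, with points for the mean and bars for the SD of 4 replicates. *Gabra2* and *Gabrb1* are above 0 under all 3 rules (1.63 and 1.27 at the least), while *Gabra3*, *Gabra4* and *Gabrb2* move with the rule.

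No subunit passed the threshold when DHPG was compared with basal. The comparison asks which RNAs and which RPFs had changed after 5 min of DHPG. In RNA, edgeR's quasi-likelihood test called 0 of 7 members at an adjusted p of 0.01, where 0.00773% of the 12935 genes tested were called, and 0 of 7 had an unadjusted p under 0.05, beside 1037 of all genes tested. DESeq2 with the same block also called 0 of 7. The members' median RNA log2 fold change was 0.03, beside 0.01 over all genes, and 4 of 7 were above 0, beside 52.1% of all genes.

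In RNA, *Gabra4* had the largest change among the members. It had 142, 143, 141 and 179 CPM (the count scaled to the library's normalized size) in basal replicates 1 to 4 and 156, 168, 156, 171 and 181 CPM in DHPG replicates 1 to 5. The DHPG libraries lay above all basal libraries but replicate 4, which stood apart from the other three. The log2 fold change was 0.11 (SE 0.07, 95% interval -0.03 to 0.25, adjusted p = 0.724). The other members had RNA log2 fold changes from -0.07 (*Gabrb1*) to 0.08 (*Gabra5*), with adjusted p from 0.800 to 0.975.

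In RPF, 0 of 7 members passed an adjusted p of 0.05 in edgeR, where 0.22% of 13208 genes were called. All 7 log2 fold changes were above 0, with a median of 0.06 beside 0.00 over all genes, of which 51.4% were above 0. Unadjusted p was under 0.05 with a higher level after DHPG for 4 of 7 (*Gabra3*, *Gabra4*, *Gabrb2*, *Gabrd*), beside 6.55% of all genes. None of these 4 passed after adjustment over all genes tested. Higher RPF after DHPG in every replicate pair was found for 3 of 7 (*Gabra3*, *Gabrb1*, *Gabrd*), beside 5.15% of all genes. These fold changes and pair changes used TMM scaling. In TPM, without it, *Gabra3* was still higher in every pair. *Gabrb1* was lower after DHPG in replicates 2 to 4 (187 to 184.5, 186.2 to 186.1 and 157 to 155.7 TPM). *Gabrd* was lower in replicate 5 (45.2 to 44.8 TPM). The *Gabra5* mean was 100.1 TPM in basal and 99.0 in DHPG libraries, so its sign was not kept. The 7 genes are not independent of each other, since the levels of several moved together over these libraries.

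*Gabrd*, the delta subunit of extrasynaptic receptors, had the largest RPF change. It had 53.5, 53.6, 55.0, 44.6 and 55.9 CPM in basal replicates 1 to 5 and 59.97, 60.30, 59.94, 56.7 and 56.2 CPM after DHPG. All 5 DHPG libraries lay above all 5 basal libraries, which was seen for 1 of 7 members and for 0.159% of all genes. In TPM, which used no TMM scaling, the groups overlapped, with 44.8 TPM in DHPG replicate 5 under 45.2 TPM in basal replicate 5. Basal replicate 4 lay under the rest of its group. The log2 fold change was 0.15 (SE 0.05, 95% interval 0.06 to 0.24), with an unadjusted p of 0.00155 and an adjusted p of 0.149. Without replicate 4 it was 0.11 and without replicate 5 it was 0.19, with adjusted p of 0.389 and 0.0820. With ComBat followed by DESeq2 in place of edgeR, the adjusted p was 0.0143 for *Gabrd* and 0.0427 for *Gabrb2*, and both were then called. That setting called 433 of 13154 genes in RPF, against 29 of 13208 in edgeR. The RNA log2 fold change of *Gabrd* was 0.04 (SE 0.08), from -0.05 without replicate 1 to 0.11 without replicate 3.

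*Gabra4*, the usual alpha partner of delta in the dentate gyrus, had 109, 122, 125, 111 and 115 CPM of RPF in the basal replicates. After DHPG it had 115, 133, 135, 117 and 113 CPM, higher in 4 of 5 pairs. The log2 fold change was 0.08 (SE 0.04, adjusted p = 0.418), and the groups overlapped.

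*Gabra3* had 99.1, 116.6, 96.7, 75.8 and 87.0 CPM of RPF in the basal replicates and 104.6, 121.3, 104.4, 83.2 and 89.5 CPM after DHPG. It was higher in 5 of 5 pairs while the groups overlapped. The log2 fold change was 0.08 (SE 0.04, adjusted p = 0.403).

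*Gabrb2*, the beta member with the higher RPF level, had 405, 448, 445, 384 and 374 CPM of RPF in the basal replicates. After DHPG it had 444, 493, 467, 387 and 365 CPM, higher in 4 of 5 pairs. The log2 fold change was 0.06 (SE 0.03, adjusted p = 0.462). *Gabra2*, *Gabrb1* and *Gabra5* had RPF log2 fold changes of 0.04, 0.04 and 0.01 (adjusted p from 0.719 to 0.955), and the upper end of their 95% intervals was 0.10 or less.

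**Figure D3:**
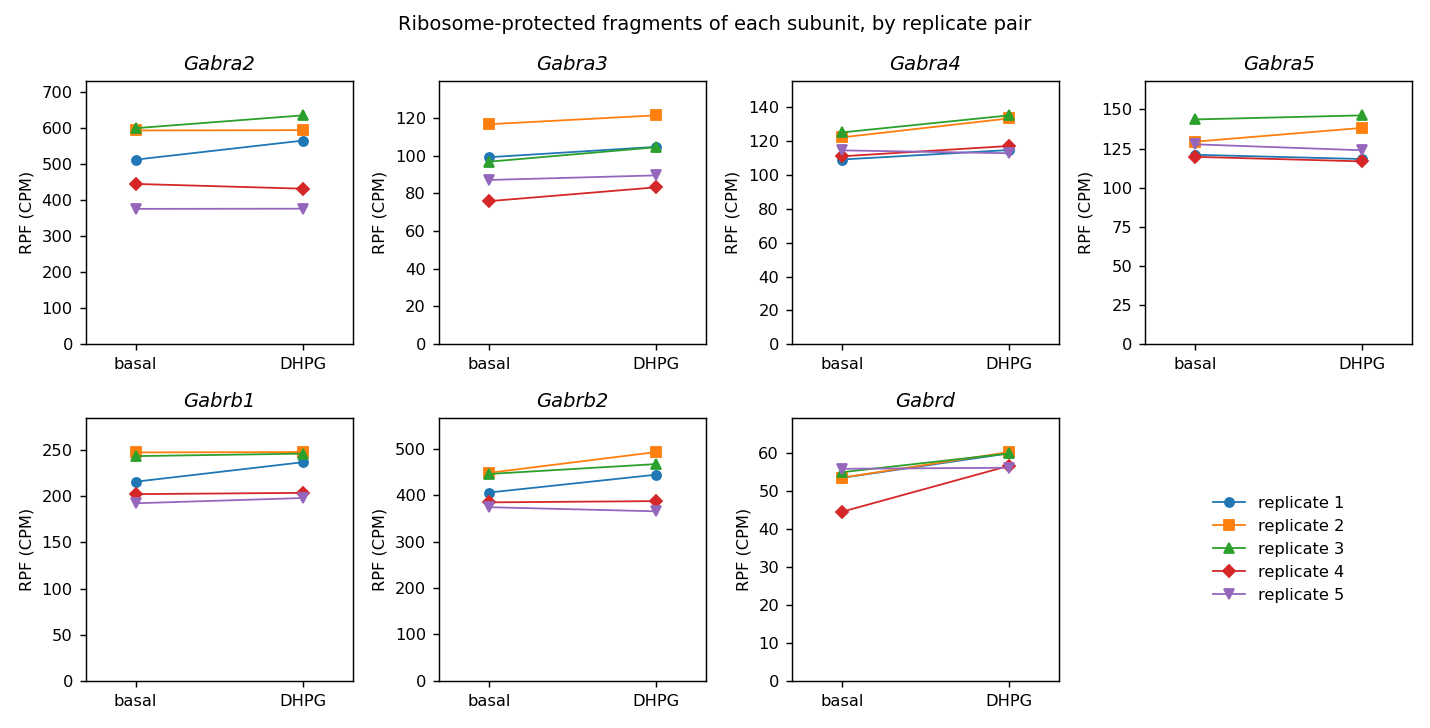
RPFs of each subunit in CPM, with a line from the basal to the DHPG library of each of 5 replicates. The replicates of *Gabra2* lie apart (376 to 600 CPM in basal libraries) with lines close to level, while all 5 *Gabrd* libraries after DHPG lie above 56 CPM.

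Replicates differed more than treatments for 6 of the 7 genes. The mean RPF level of a replicate pair ran from 376 CPM in replicate 5 to 618 CPM in replicate 3 for *Gabra2*, a 1.64-fold range, while the largest change within a pair was 1.10-fold. The range between pairs was 1.5-fold for *Gabra3* and 1.16-fold to 1.27-fold for *Gabra4*, *Gabra5*, *Gabrb1* and *Gabrb2*, against at most 1.10-fold within a pair. For *Gabrd* the pairs ranged over 1.14-fold and the largest change within a pair, in replicate 4, was 1.27-fold.

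Translation efficiency (TE), the change of RPF relative to RNA, was tested as an interaction over all 19 libraries. Its RNA side rested on 4 replicate pairs, since DHPG RNA of replicate 5 had no basal partner. In edgeR 0 of 7 members passed an adjusted p of 0.05, as did 0% of the 12691 genes tested, and 0 of 7 had an unadjusted p under 0.05, beside 849 of all genes. Limma on the difference of log2 CPM called 0 genes. The TE log2 changes ran from -0.08 for *Gabra5* (SE 0.07) to 0.12 for *Gabrd* (SE 0.09). Of the 7, 5 were above 0, beside 49.5% of all genes. All adjusted p were between 0.813 and 0.954.

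**Figure D4:**
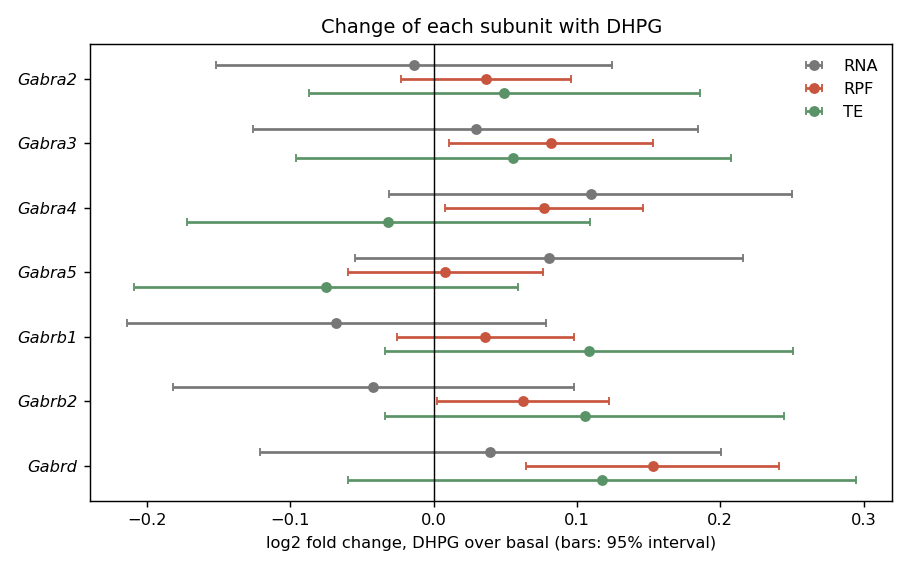
Log2 fold change with DHPG of each subunit in RNA (grey), RPF (red) and TE (green), with 95% intervals as bars. The RPF points lie between 0.01 and 0.15, and only the RPF intervals of *Gabra3*, *Gabra4*, *Gabrb2* and *Gabrd* leave out 0, before adjustment over all genes.

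The proportions of the subunits were compared within replicate pairs. *Gabra2* took 62.7% ± 3.65 (SD, n = 5) of the alpha RPF level after DHPG, a difference of -0.14 percentage points over 5 pairs (exact permutation test over pairs, two-sided, p = 1). The other alpha shares differed by 0.29 points (*Gabra3*, exact p = 0.188), 0.26 points (*Gabra4*, exact p = 0.313) and -0.42 points (*Gabra5*, exact p = 0.313). The *Gabrb2* share of the beta RPF level differed by 0.34 points (exact p = 0.688). Among all 7 members *Gabrd* had 3.74% ± 0.492 of the RPF level in basal and 4.04% ± 0.451 in DHPG slices, higher in 5 of 5 pairs (exact p = 0.063), which is the smallest p that 5 pairs can give, so a p under 0.05 was out of reach. In RNA, with 4 pairs and a smallest p of 0.13, the alpha and beta shares differed by -0.89 to 0.95 points, with exact p from 0.25 to 0.625.

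Thalamus markers were read in the same libraries. Delta, alpha 4 and beta 2 are also thalamic subunits, and none of the markers is a member. The marker list was chosen with earlier results of these data known. Of 24 thalamus markers all were detected, and 21 of the 22 tested had a higher RPF level after DHPG, with a median log2 fold change of 0.21. Their summed RPF level was 574 to 701 CPM in basal and 602 to 820 CPM in DHPG libraries, and in RNA 18 of 20 were higher. The median RPF change of the thalamus markers was 0.21, 0.28, 0.30 and 0.37 in replicates 1 to 4 and -0.18 in replicate 5. In replicate 5, the RPF changes of *Gabrd*, *Gabra4* and *Gabrb2* were 0.01, -0.02 and -0.03, and in replicate 4, where the marker median was highest, they were 0.35, 0.08 and 0.01. The members *Gabra2*, *Gabra3*, *Gabra5* and *Gabrb1* had 0.002, 0.04, -0.04 and 0.04 in replicate 5. Their changes in replicate 4 were -0.04, 0.13, -0.04 and 0.01, so values near 0 in replicate 5 were not particular to the subunits named as thalamic. The part of thalamic tissue in the subunit values was not tested.

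**Figure D5:**
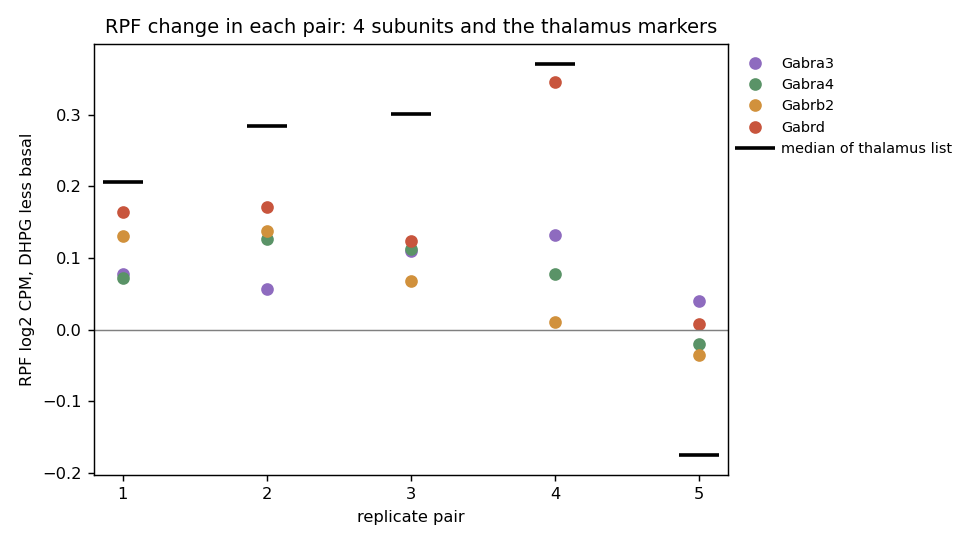
RPF change with DHPG (log2 CPM, DHPG less basal) in each replicate pair for *Gabra3*, *Gabra4*, *Gabrb2* and *Gabrd* (points) and the median of the tested thalamus markers (black bars). The bars are between 0.21 and 0.37 in pairs 1 to 4 and at -0.18 in pair 5, where the 4 subunits lie between -0.03 and 0.04.

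The lists for other cell types had smaller median RPF changes over all pairs. Of 10 dentate granule cell markers 6 had a higher RPF level (median log2 fold change 0.01), of 6 CA1 pyramidal markers 3 (median -0.003) and of 5 CA3 pyramidal markers 2 (median -0.03). Of 10 interneuron markers 6 were higher (median 0.01). All 6 astrocyte markers (median 0.07) and all 6 microglia markers (median 0.10) had higher RPF levels, as did 5 of 6 oligodendrocyte markers (median 0.09), while 0 of 5 endothelial markers did (median -0.14). By pair, the median RPF change of the oligodendrocyte markers was 0.12, 0.22, -0.01 and 0.21 in replicates 1 to 4 and -0.11 in replicate 5. In RNA all 6 oligodendrocyte markers were higher (median 0.16), as were 8 of 10 dentate granule cell markers (median 0.09). The CA1, CA3, interneuron, astrocyte, microglia and endothelial lists had RNA medians from -0.14 (endothelium) to 0.05 (CA1). Apart from the thalamus and oligodendrocyte lists, median RPF changes in replicate 5 ran from -0.04 (CA3) to 0.16 (endothelium). No marker of any list was at 0 in every library.

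The proteins that make, hold and serve these receptors gave no call either. Of 39 genes for GABA synthesis, uptake, breakdown, chloride transport, anchoring, trafficking and GABA-B receptors, 37 were tested in each assay and 0 passed the threshold in RNA or RPF. In RPF, 20 of 37 were above 0, with a median log2 fold change of 0.01. Unadjusted p was under 0.05 for 9 of 37 genes with a higher RPF level, beside 6.55% of all genes, and for 1 with a lower level. Among the 12 tested anchoring and auxiliary proteins were 7 of those 9 and the 1 that was lower. Of these 12, 8 were above 0 (median 0.08), and of 10 trafficking genes 2 were above 0 (median -0.03), with an unadjusted p under 0.05 for 0 of 10. The difference between these groups was not tested.

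The smallest p among these higher in RPF was that of *Shisa7*, an auxiliary subunit of GABA-A receptors. It had 110 ± 9.88 CPM (SD, n = 5) in basal and 121 ± 12.7 in DHPG slices, was higher in 5 of 5 pairs and had a log2 fold change of 0.13 (SE 0.04, adjusted p = 0.144). *Lhfpl3*, a relative of the receptor's auxiliary protein GARLH4, had a log2 fold change of 0.20 (SE 0.07, adjusted p = 0.249). Among those below 0, *Rdx*, which encodes radixin, the anchor of alpha 5 receptors, had a log2 fold change of -0.07 (SE 0.03, adjusted p = 0.479).

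In RNA, the genes of this list with the smallest p were *Iqsec3* (log2 fold change 0.20, adjusted p = 0.538), which encodes a gephyrin-binding exchange factor, and *Slc6a11* (0.20, adjusted p = 0.555), a GABA transporter of astrocytes. Lower were *Nsf* (-0.12, adjusted p = 0.646), the fusion ATPase, and *Hap1* (-0.12, adjusted p = 0.726), which takes part in receptor recycling. The group of 6 other subunit genes tested in RPF had log2 fold changes from 0.02 to 0.24. Of these 6, 2 had an unadjusted p under 0.05, beside 1421 of all 13208 genes tested, and 0 passed the threshold.

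Across the 10 RPF libraries the subunits followed each other to differing degrees. Pearson's r of log2 CPM, which is given as a description because the libraries are pairs of 5 replicates, was 0.97 between *Gabra2* and *Gabrb1*, 0.96 between *Gabrb1* and *Gabrb2* and 0.94 between *Gabra2* and *Gabrb2*. *Gabrb1* was the gene most like *Gabra2* among 9418 genes with a mean of at least 10 CPM. *Gabra4* and *Gabra5* had r = 0.86. *Gabrd* was least like the rest, with r from 0.32 (*Gabra2*) to 0.61 (*Gabra3*).

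By the same measure the 3 genes most like each subunit were named. For *Gabra2* they were *Gabrb1*, *Flrt3* and *Tmem74* (r = 0.97 for all), where *Flrt3* encodes a synaptic adhesion protein. For *Gabra3* they were *L1cam*, a neural adhesion molecule, *Chgb*, a secretory granule protein, and *Prkcsh*, a glucosidase subunit of the endoplasmic reticulum (r from 0.98 to 0.99). For *Gabrb1* they were *Nrp1*, a semaphorin receptor, *Kidins220*, a neuronal scaffold, and *Gabra2* (r from 0.97 to 0.99). For *Gabrb2*, *Elovl4*, an elongase of very long fatty acids, and *Spock1*, a proteoglycan, had r of 0.99 and 0.98.

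The remaining subunits had other neighbours. Those of *Gabra4* were *Polr2b*, a subunit of RNA polymerase II, *Rab10*, a membrane traffic GTPase, and *Nampt*, an enzyme of NAD synthesis (r from 0.95 to 0.96). Those of *Gabra5* were *Uhrf1bp1l*, *Nbea*, a trafficking protein, and *Xpo4*, an exportin (r from 0.95 to 0.97). For *Gabrd* the closest were *Kcnv1*, a modifying potassium channel subunit, *Ptprm*, a receptor phosphatase, and *Tmem63a*, an ion channel, with the lowest r of any subunit (0.89 to 0.90) and Spearman's rho from 0.55 to 0.64. These neighbours changed with the measure. By Spearman's rho 0 of the 3 genes named by r remained for 6 of 7 subunits and 1 of 3 for *Gabra5*.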

How the data were processed

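The authors removed adapters with cutadapt, aligned with Bowtie2 and TopHat2 to mm10 (per the labels) and removed duplicates by molecular identifiers. They deposited expected counts per gene from RSEM, without normalization, and these were rounded to whole numbers for the tests here. RNA was counted on whole transcripts and RPF on coding sequences without the first and last 30 nt. Reads shared by similar subunits cannot be split again. In the tables, 12 columns of no sample of the series were not used.

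DHPG was compared with basal by edgeR 4.0.16 (R 4.3.3, quasi-likelihood test, TMM, filterByExpr, replicate number as a block, Benjamini-Hochberg over all genes tested), separately in RNA and RPF. TE was the interaction of library type and treatment. With the block, DHPG RNA of replicate 5, which had no basal partner, carried no information on the change in RNA or TE. The study's methods corrected batches with ComBat before DESeq2. Here, that was an alternative, beside DESeq2 1.42.0 with the block, other normalization and filters, limma 3.58.1 for TE, sva 3.50.0 for ComBat, and each replicate left out. Same-numbered samples deviated together (correlations of deviations 0.308 to 0.741 in RNA and 0.259 to 0.523 in RPF), and the numbers were taken as pairs. Samples with different numbers were not compared in this way, so the correlations alone do not establish the pairing. Nothing in the labels says that replicates are separate animals beyond the pooling, and p-values measure the spread between these samples. Log2 CPM used a prior count of 2.

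Lengths came from GENCODE vM21 for 98.9% of genes, from the transcript with the longest coding sequence. The RefSeq-linked transcript was added after the data were seen. The fits were tested on simulated data. The members and the lists were chosen with earlier results of these data known. The named genes are the members, the listed GABA genes past a threshold or with the 2 smallest p in each direction per assay, and the 3 genes of highest r with each member. Subunit genes outside the 7, and 1 other gene that this rule picked, are not reported here by name.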

Additional observations from a re-analysis of the deposited data

Results flagged for a closer look

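In groups of 4 or 5 libraries, the gap of a library to the nearest other was divided by the range of the group. The library was marked when this ratio exceeded Dixon's critical value. Of 28 groups screened (7 genes, 2 assays, 2 treatments), 3 were marked, where chance alone gives about 1.4. *Gabrd* had 44.6 CPM of RPF in basal replicate 4, against 53.5 to 55.9 in the other four basal libraries. *Gabra4* had 179 CPM of RNA in basal replicate 4, against 141 to 143 in the other three. *Gabra3* had 54.9 CPM of RNA in DHPG replicate 3, against 65.7 to 69.5 in the other four. The basal RNA library of replicate 3 was also the lowest of its group for *Gabra3*, at 47.3 CPM.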

How the results depend on the processing

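The count of genes past the threshold over all genes moved with the processing. It was 1 in RNA, 29 in RPF and 0 in TE with the replicate block. With no replicate block it was 0 in each, with no filter on low counts 7, 96 and 3, and with ComBat then DESeq2 102 in RNA and 433 in RPF. In RNA it was 0 with at least 10 counts in every library and 0 in DESeq2 with the block, and in RPF 8 at an adjusted p of 0.01. Leaving out a replicate gave 0 to 22 genes in RNA, 3 to 71 in RPF and 0 to 8 in TE.

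No member was called in RNA or TE under any alternative (smallest adjusted p 0.240 and 0.448). In RPF, ComBat then DESeq2 called *Gabrd* (adjusted p = 0.0143) and *Gabrb2* (0.0427), beside 433 of 13154 genes. No other alternative called a member. DESeq2 with the block gave no adjusted p to *Gabra3*, *Gabra4*, *Gabra5* and *Gabrd* in RPF. Signs turned for some changes near 0. Over the replicates left out, RNA log2 fold changes ran from -0.073 to 0.015 for *Gabra2* (above 0 without replicate 1, and 0.012 without replicate 2), from -0.025 to 0.055 for *Gabra3* (lowest without replicate 3), from -0.101 to 0.016 for *Gabrb2* (highest without replicate 1) and from -0.048 to 0.113 for *Gabrd* (lowest without replicate 1). That of *Gabrb2* was 0.0082 with no replicate block. *Gabra5* ran from -0.018 (without replicate 2) to 0.021 in RPF and *Gabra2* from -0.013 (without replicate 1) to 0.132 in TE. The cause was not tested.

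The *Gabrb2* share of beta RPF (63.3%) was 64.2% with median lengths and 65.2% with no length or the RefSeq-linked length. Set against all 19 subunit rows, the RPF share of *Gabra2* was 18.1% and that of *Gabrb2* 13.0%, by construction. RNA shares and ratios also moved with the assumed transcript length. Of the 42 alternative lists of most alike genes, 39 kept at most 1 of 3 genes.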
